A study of Homo sapiens with 8 samples.

Results

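Transcripts of 33 genes of glycolysis and glycogen metabolism were followed in cells labelled as human multiple myeloma lines and exposed to Zalypsis. The genes were taken from a list of 35 and were found through the platform's gene annotation. SLC16A1 and SLC16A3, which export lactate, had no probe set with a single gene symbol in the table used here and were not analysed here. The 33 genes are part of 19775 genes with a probe set, and all 33 were among the 11865 bright enough to be tested.

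The 4 groups were OPM1-labelled cells with Zalypsis, OPM1-labelled controls, MM1S with Zalypsis and MM1S controls, with 2 arrays each on the HG-U133 Plus 2.0 design. Zalypsis is a synthetic alkaloid of marine type that attaches to DNA, and it was given at 5 nM until 15 to 20% of the cells were dying; how long that took, and what the controls received, is not given in the sources used here. MM1S and OPM1 are names of established myeloma lines, and a line stands for a single tumour. By the markers given below, the OPM1-labelled cells carried transcripts of B cells as well as of plasma cells, most of the latter lower than in MM1S. Separate cultures are named in no label, so the spread behind the p-values is that of arrays and may be technical. Signals are the authors' intensities on a linear scale. Changes are differences of mean log2(signal + 32), which understate the change of dim genes, with standard errors (SE). A gene was called at a limma adjusted p under 0.05.

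Glycolysis splits glucose into pyruvate in the cytosol, and cells that rely on it turn much of that pyruvate into lactate. Hexokinase and phosphofructokinase are its main points of control, and the hypoxia factor HIF1 raises the transcripts of many of its enzymes and of glucose transporters. Glycogen is a branched store of glucose that is built from phosphorylated glucose and broken down by phosphorylases. Myeloma cells are known for high glucose uptake, which is used to image the disease.

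Several measures differed between the arrays. The summed signal of 10 plasma cell markers was 4854 to 5396 on OPM1-labelled Zalypsis arrays and 5600 to 6427 on their controls, against 27914 to 29212 and 36321 to 38865 on the MM1S arrays. SDC1, a defining plasma cell gene, averaged 9.71 on OPM1-labelled controls and 3195 on MM1S controls, and the B-cell factor PAX5 averaged 3219 and 6.89. Of the plasma cell markers CD38 alone was called higher in OPM1-labelled controls, at 489 against 54.2, and the others were called lower. The B-cell markers were called higher there, other than CIITA, which was not called (55.6 against 41.8). Mean signals above 100 were read for 8 of 10 plasma cell and 8 of 9 B-cell markers on OPM1-labelled controls, and for 9 and 1 on MM1S controls. On the OPM1-labelled Zalypsis arrays the counts were 5 and 4. The cells are therefore called OPM1-labelled, and whether they are the OPM1 line was not tested. Summed over 9 B-cell markers the signal was 5002 to 5993 with Zalypsis and 10511 to 11713 without it in OPM1-labelled cells. There MS4A1, PAX5, CD79B, CD22, EBF1 and BACH2 were called lower with Zalypsis. SPIB was called higher (mean 499, against 246), and CD79A (3730, against 3279) and CIITA were not called. Markers of T cells (sum 48.9 to 136), myeloid cells (43.5 to 171) and stroma (170 to 260) were low on every array, although CD14 averaged 98.6 on OPM1-labelled Zalypsis arrays and 5.36 on their controls. The 3′ to 5′ ratio of the GAPDH control sets was 2.26 on OPM1-labelled control 1 and 0.963 to 1.06 elsewhere. Poly-A controls, bacterial transcripts added before labelling, read 1948 and 1479 on the OPM1-labelled Zalypsis arrays, 349 and 541 on their controls and 22.7 to 30.6 in MM1S. At the 75th percentile the OPM1-labelled Zalypsis arrays read 77.2 and 78.3, and the others 101 to 115. The part of these measures in the results below was not tested, beyond the scalings named with them. In bulk RNA, fewer cells of a type and less RNA per cell cannot be told apart.

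In OPM1-labelled cells, Zalypsis lowered both hexokinases, 2 of 3 phosphofructokinase genes and all 4 listed genes of glycogen synthesis. Both glucose transporters were called lower as well, SLC2A3 by its brightest probe set and at dim signals. ALDOA, TPI1, GAPDH, PGAM1, ENO1 and PKM, which act between phosphofructokinase and pyruvate, did not pass the test. ENO1 and GAPDH missed it narrowly (limma adjusted p = 0.056 and 0.060). Of the other genes listed for this stretch, PGK1 (log2 -0.48) and ENO2 (-1.02) were called lower, and ALDOC (0.96) and BPGM (1.98) higher. Of the 33 genes 18 fell, 4 rose and 11 were not called, with a median log2 change of -0.53. Among all tested genes 38.5% fell and 25.4% rose, with a median of -0.07. The share of the 33 that fell (54.5%) lay above that background, and the share that rose (12.1%) below it. In MM1S 5 of the 33 fell and 4 rose, that is 15.2% and 12.1%, where 21.1% and 16.4% of all tested genes did (37.6% either way). The medians there were -0.01 for the 33 genes and 0.02 for all genes, and both shares of the 33 lay below that background.

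The balance of calls in OPM1-labelled cells moved with the scaling. Lower genes made up 81.8% of the called members, but 76.0% after quantile normalization and 53.6% after scaling to a common 75th percentile, while over all called genes the share was 60.3%, and 45.4% and 40.7% under these scalings. The median of all genes there was 0.11 after quantile normalization and 0.21 at a common 75th percentile, where the members had -0.44 and -0.12. In MM1S the share was 55.6% of called members, against 45.5% and 41.7% under these scalings, and 56.2% of all calls, against 45.4% and 42.9%. Scaling by the poly-A controls put 29 members lower and 0 higher in OPM1-labelled cells by limma, together with 8538 of all genes lower. Without OPM1-labelled control 1, the array with the raised 3′ to 5′ ratio, 20 members fell and 4 rose.

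**Figure D1:**
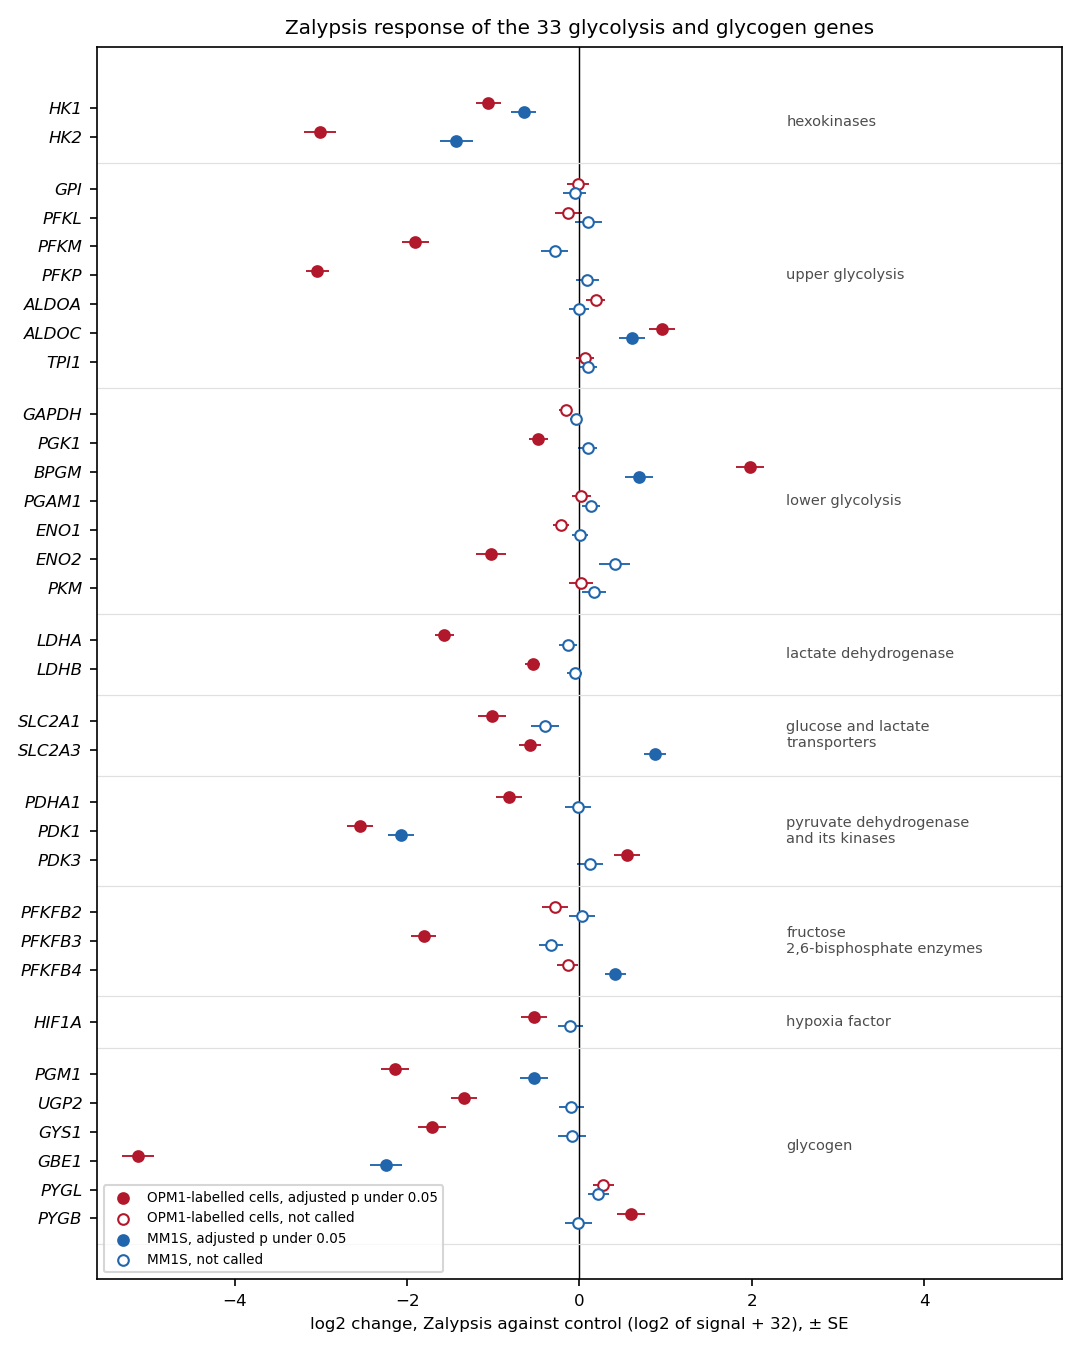
Log2 change of each of the 33 genes with Zalypsis (x axis, ± SE) in OPM1-labelled cells (red) and MM1S (blue), grouped by role from top to bottom. Filled points passed the test. GBE1 lies farthest left in both lines (-5.12 and -2.24), and GPI, ALDOA, TPI1, GAPDH, PGAM1, ENO1 and PKM lie near 0 in both. The rises of ALDOC and PDK3 in OPM1-labelled cells turn into called falls when the arrays are scaled by the poly-A controls. That of PYGB turns into -0.30, which was not called.

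Glycogen genes held the largest change. GBE1, the branching enzyme that gives glycogen its side chains, had a signal of 88.0 and 43.3 on the OPM1-labelled Zalypsis arrays, against 3334 and 3224 on the controls. The MM1S arrays had 83.9 and 114 with Zalypsis, against 635 and 537. Treated arrays lay below controls in each line, by 49.9-fold in mean signal in OPM1-labelled cells and 5.92-fold in MM1S. The log2 change was -5.12 ± 0.19 in OPM1-labelled cells (adjusted p = 1.7e-15), rank 2 among the falls of all tested genes. In MM1S it was -2.24 ± 0.19 (adjusted p = 2.4e-09), rank 118.

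The 4 listed members that act on the path from phosphorylated glucose to glycogen all fell in OPM1-labelled cells. PGM1, which moves the phosphate of glucose to the position needed for glycogen, had 169 and 132 with Zalypsis, against 801 and 735 (log2 -2.14 ± 0.16, adjusted p = 1.5e-10). In MM1S it had 851 and 776, against 1358 and 1031, a fall of 0.52 on the log2 scale (adjusted p = 0.015) that was not called without MM1S control 1 (adjusted p = 0.167) or without MM1S Zalypsis 2 (0.11). UGP2 makes UDP-glucose, the donor of glucose for glycogen. It had 517 and 573 on OPM1-labelled Zalypsis arrays, against 1350 and 1514 (log2 -1.34 ± 0.15, adjusted p = 5.2e-08). The MM1S arrays overlapped, at 1259 and 1104 with Zalypsis, against 1341 and 1183 (log2 -0.09, adjusted p = 0.669).

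GYS1, the glycogen synthase of muscle and most other tissues, had 105 and 134 in treated OPM1-labelled cells, against 483 and 444. Its treated arrays lay far below the controls (log2 -1.71 ± 0.16, adjusted p = 5.8e-09). The MM1S values again overlapped, at 422 and 342 with Zalypsis, against 474 and 347 (log2 -0.09, adjusted p = 0.726). The phosphorylases, which release glucose from glycogen, were not called lower other than after scaling to the poly-A controls. PYGB, the brain form, had 91.8 and 97.5, against 43.6 and 60.9, in OPM1-labelled cells (log2 0.60 ± 0.16, adjusted p = 0.0025). When scaled by the poly-A controls it had -0.30, which was not called (limma adjusted p = 0.168). PYGL, the liver form, had 76.3 and 77.7, against 57.1 and 58.7, with a change of 0.28 (adjusted p = 0.052).

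**Figure D2:**
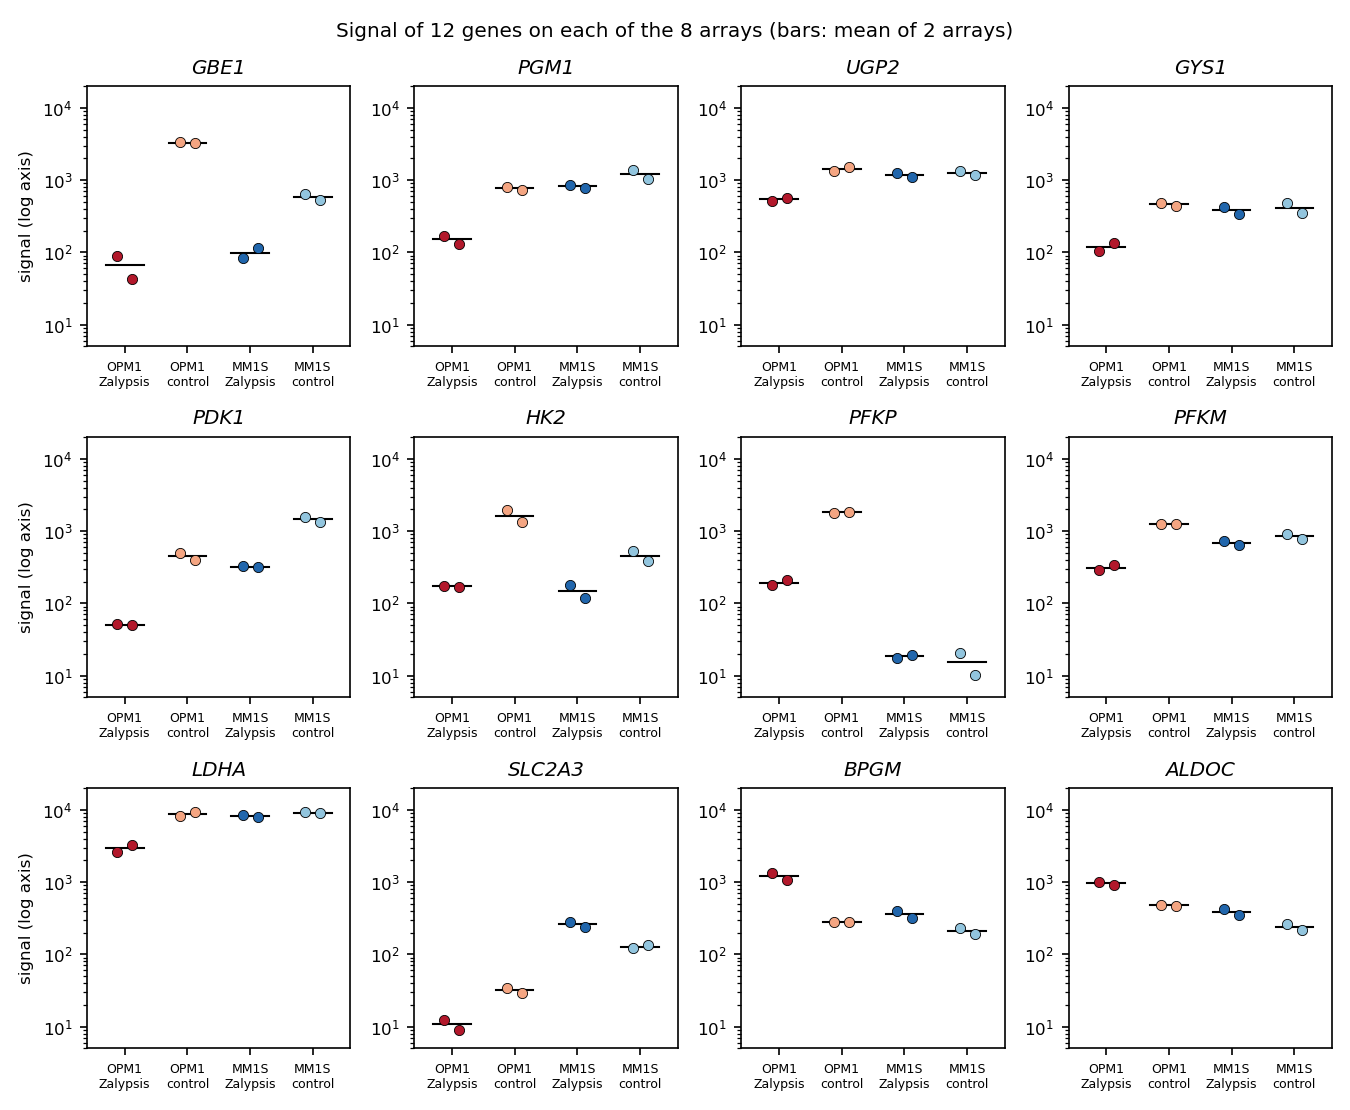
Signal (log axis) of 12 of the genes on every array, with Zalypsis left of control within each line; points are arrays and bars the mean of 2. For GBE1, PDK1 and HK2 the treated arrays lie below the controls in both lines, for PGM1, UGP2, GYS1, PFKM and LDHA the gap is far wider in OPM1-labelled cells, and BPGM and ALDOC lie above their controls. ALDOC in OPM1-labelled cells turns lower when scaled by the poly-A controls.

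Glucose transporters bring the sugar in. SLC2A1, the basal transporter GLUT1, had 588 and 668 on OPM1-labelled Zalypsis arrays, against 1170 and 1438 (log2 -1.01 ± 0.16, adjusted p = 9.2e-06). In MM1S it had 320 and 253, against 404 and 371, a change of -0.40 (adjusted p = 0.053). By its brightest probe set SLC2A3, the high-affinity transporter GLUT3, moved in opposite directions. It had 12.5 and 9.06 on OPM1-labelled Zalypsis arrays, against 34.2 and 29.1, all dim, and 281 and 238 in treated MM1S, against 121 and 132.9. The log2 change was -0.57 ± 0.13 in OPM1-labelled cells (adjusted p = 0.00045) and 0.87 ± 0.13 in MM1S (adjusted p = 9.8e-06). The other SLC2A3 sets changed by -0.23 and 0.06 in OPM1-labelled cells, and by 0.47 and 0.36 in MM1S. Scaled by the poly-A controls, the fall in OPM1-labelled cells was not called (log2 -0.39, limma adjusted p = 0.0563). SLC2A14 is a near-identical copy of SLC2A3, and the probes may read both.

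Hexokinases trap glucose by phosphorylating it, and both fell in both lines. HK2, the inducible form that many tumours use, had 172 and 170 in treated OPM1-labelled cells, against 1923 and 1336. In MM1S it had 181 and 119, against 521 and 390. The log2 change was -3.01 ± 0.19 in OPM1-labelled cells (adjusted p = 5.3e-12) and -1.43 ± 0.19 in MM1S (adjusted p = 2.5e-06). HK1, the form found in most tissues, had 17.7 and 10.9 on OPM1-labelled Zalypsis arrays, against 70.9 and 57.6 (log2 -1.06 ± 0.15, adjusted p = 1.3e-06). In MM1S HK1 had 162 and 221, against 345 and 288 (log2 -0.65 ± 0.15, adjusted p = 0.0011). Treated and control arrays did not overlap for either hexokinase.

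Phosphofructokinase, the committing step of glycolysis, has 3 subunit genes, and they differed. PFKP, the platelet type, had 176 and 209 in treated OPM1-labelled cells, against 1783 and 1842 (log2 -3.04 ± 0.14, adjusted p = 2.8e-14). In MM1S it was dim throughout, at 17.5 and 19.3 with Zalypsis, against 20.8 and 10.3. PFKM, the muscle type, had 290 and 335 on OPM1-labelled Zalypsis arrays, against 1263 and 1246 (log2 -1.90 ± 0.15, adjusted p = 3.3e-10). Its MM1S arrays had 735 and 640, against 918 and 778, with a change of -0.29 (adjusted p = 0.15). PFKL, the liver type, changed by -0.13 in OPM1-labelled cells and 0.10 in MM1S and was called in neither (adjusted p = 0.491 and 0.649).

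The enzymes that make and remove the fructose bisphosphate that activates phosphofructokinase followed no common course. PFKFB3, whose kinase activity predominates, had 66.7 and 62.9 in treated OPM1-labelled cells, against 359 and 262 (log2 -1.81 ± 0.14, adjusted p = 1.9e-10). The MM1S arrays had 52.9 and 40.8, against 62.6 and 70.9 (log2 -0.33, adjusted p = 0.073). PFKFB4 was higher with Zalypsis in MM1S, at 110 and 93.0, against 65.0 and 70.5 (log2 0.42, adjusted p = 0.011), but not without MM1S control 1 (adjusted p = 0.0752) or without MM1S Zalypsis 1 (0.137). Only 2 of the 33 genes were higher in MM1S without MM1S Zalypsis 1, since ALDOC was not called either (log2 0.49, adjusted p = 0.0716). By its brightest probe set PFKFB2 was dim in OPM1-labelled cells, at 13.6 or below, and was called in neither line. Another PFKFB2 set, not tested by itself, had 63.8 and 67.9 in treated MM1S, against 31.8 and 35.5 (log2 0.58). In OPM1-labelled cells that set had 21.9 and 18.1, against 8.26 and 9.33 (log2 0.35). The remaining sets, dimmer still, changed by 0.12 and 0.05 in OPM1-labelled cells and by 0.17 and 0.14 in MM1S.

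The main enzymes of the other glycolytic steps mostly did not pass the test. GPI, ALDOA, TPI1, GAPDH, PGAM1, ENO1 and PKM, which encode the isomerase, aldolase, triose isomerase, dehydrogenase, mutase, enolase and pyruvate kinase of the pathway, were called in neither line. Their changes lay between -0.21 (ENO1) and 0.19 (ALDOA) in OPM1-labelled cells and between -0.05 (GPI) and 0.17 (PKM) in MM1S. A call missed does not show that they were constant. In OPM1-labelled cells the direction of all 7 followed the scaling. At a common 75th percentile each was called higher, at log2 0.21 (ENO1) to 0.61 (ALDOA), and scaled by the poly-A controls each was called lower, at -1.73 (ALDOA) to -2.13 (ENO1). GAPDH and ENO1 were also called lower without OPM1-labelled control 1 (adjusted p = 0.0147 and 0.00551), and ALDOA was called higher without control 2 (log2 0.37, adjusted p = 0.00132). GAPDH had 12442 and 12666 with Zalypsis, against 13793 and 14272, in OPM1-labelled cells, on arrays whose brightest probe sets read 16628 to 18317. PGK1, which makes ATP from bisphosphoglycerate, had 3200 and 3045, against 4249 and 4470, in these cells (log2 -0.48, adjusted p = 0.00063), and was not called at a common 75th percentile (log2 -0.06).

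BPGM and ALDOC rose in both lines. BPGM diverts an intermediate of glycolysis to a side product that lowers the oxygen affinity of haemoglobin and is best known from red blood cells. It had 1325 and 1078 in treated OPM1-labelled cells, against 282 and 276, and 399 and 321 in treated MM1S, against 232 and 188. The log2 change was 1.98 ± 0.16 in OPM1-labelled cells (adjusted p = 3.6e-10) and 0.69 ± 0.16 in MM1S (adjusted p = 0.0015), but 0.09 in OPM1-labelled cells when scaled by the poly-A controls. ALDOC, the brain form of aldolase, had 991 and 924 in treated OPM1-labelled cells, against 488 and 465 (log2 0.96 ± 0.15, adjusted p = 9.4e-06, and -0.76 when scaled by the poly-A controls). In MM1S it had 418 and 350, against 262 and 218 (log2 0.61 ± 0.15, adjusted p = 0.0029). ENO2, the neuronal enolase, had 34.0 and 16.5, against 94.4 and 72.7, in OPM1-labelled cells (log2 -1.02 ± 0.18, adjusted p = 2.5e-05). In MM1S it had 1245 and 979, against 954 and 712 (log2 0.41, adjusted p = 0.074).

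Pyruvate leaves glycolysis as lactate or through pyruvate dehydrogenase. LDHA, the lactate dehydrogenase chain that favours lactate formation, had 2616 and 3294 in treated OPM1-labelled cells, against 8240 and 9318. Its MM1S arrays had 8544 and 8026, against 9235 and 8930. The log2 change was -1.57 ± 0.11 in OPM1-labelled cells (adjusted p = 2.3e-11) and -0.13 ± 0.11 in MM1S (adjusted p = 0.364). LDHB, the heart-type chain, changed by -0.54 in OPM1-labelled cells (adjusted p = 9.7e-06) and by -0.12 there at a common 75th percentile, where the call was lost.

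PDK1 phosphorylates pyruvate dehydrogenase and shuts it off. PDK1 had 50.9 and 50.2 in treated OPM1-labelled cells, against 502 and 402, and 324 and 320 in treated MM1S, against 1577 and 1347. The log2 change was -2.54 ± 0.15 in OPM1-labelled cells (adjusted p = 2.2e-12) and -2.07 ± 0.15 in MM1S (adjusted p = 3.3e-10). Another kinase gene, PDK3, was higher in OPM1-labelled cells by its brightest probe set (log2 0.55, adjusted p = 0.0033), but its 4 other sets had changes of -0.26 to -1.46, and the mean of all sets was -0.51. PDK3 was also not called without OPM1-labelled Zalypsis 1 (adjusted p = 0.0791). PDHA1, the catalytic subunit of the dehydrogenase, had 1508 and 1429 in treated OPM1-labelled cells, against 2446 and 2769 (log2 -0.81, adjusted p = 6.0e-05). HIF1A, the oxygen-regulated subunit of HIF1, changed by -0.53 there (adjusted p = 0.0039), and its call was lost at a common 75th percentile (-0.13) and without OPM1-labelled Zalypsis 1 (adjusted p = 0.0519).

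Probe sets of a gene differed in other cases too. Of the 33 genes 19 had several probe sets, 70 sets in all. Besides the set given above, HK2 had sets that changed by -0.39 and -0.37 in OPM1-labelled cells, both near background. PDK1 had sets with changes of -0.88 and -0.17 there, against -1.75 and -0.99 in MM1S. Another ENO1 set changed by 0.93 in OPM1-labelled cells. It had 4622 and 5666 with Zalypsis, against 1208 on OPM1-labelled control 1, the array with the raised 3′ to 5′ ratio, and 5839 on control 2. The 3 PDHA1 sets lay between -0.81 and -0.67, and the 6 PGK1 sets between -0.49 and -0.40.

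Calls were compared gene by gene between the lines. In both lines 5 genes fell (HK1, HK2, PDK1, PGM1 and GBE1) and 2 rose (ALDOC and BPGM). A further 12 fell in OPM1-labelled cells and were not called in MM1S, SLC2A3 fell in OPM1-labelled cells and rose in MM1S, and 10 were called in neither. Of all tested genes 38.5% fell in OPM1-labelled cells and 21.1% in MM1S. The share of all genes called in both lines was not counted, so these counts are a description. The promoters of 3 genes lower in both lines and of both genes higher in both are printed to show where the motif ACGTG lies in genes of each direction that hold it. HK1, also lower in both lines, had windows in the table, but none with the motif. PGM1, lower in both lines as well, holds the motif in a window but is not printed. Each is a RefSeq window of GRCh38.p14 from 250 bases before to 50 bases after a transcription start. Capitals mark ACGTG, the core of the element that HIF1 binds, or CACGT, its reverse complement. GBE1 starts on the minus strand at chr3:81761596-81761895, PDK1 on the plus strand at chr2:172555840-172556139 and HK2 on the plus strand at chr2:74833877-74834176. BPGM starts on the plus strand at chr7:134646603-134646902 and ALDOC on the minus strand at chr17:28576846-28577145.
GBE1: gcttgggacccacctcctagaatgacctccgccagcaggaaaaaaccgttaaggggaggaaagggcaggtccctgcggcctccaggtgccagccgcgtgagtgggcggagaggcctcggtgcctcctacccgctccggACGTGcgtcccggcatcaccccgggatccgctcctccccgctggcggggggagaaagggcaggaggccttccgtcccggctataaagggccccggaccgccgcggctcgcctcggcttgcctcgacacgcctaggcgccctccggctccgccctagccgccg
PDK1: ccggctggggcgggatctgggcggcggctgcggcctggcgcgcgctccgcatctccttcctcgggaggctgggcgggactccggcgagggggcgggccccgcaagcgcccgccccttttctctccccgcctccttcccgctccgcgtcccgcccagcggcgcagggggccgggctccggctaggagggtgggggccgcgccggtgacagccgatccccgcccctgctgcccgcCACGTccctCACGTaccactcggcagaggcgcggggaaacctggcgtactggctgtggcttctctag
HK2: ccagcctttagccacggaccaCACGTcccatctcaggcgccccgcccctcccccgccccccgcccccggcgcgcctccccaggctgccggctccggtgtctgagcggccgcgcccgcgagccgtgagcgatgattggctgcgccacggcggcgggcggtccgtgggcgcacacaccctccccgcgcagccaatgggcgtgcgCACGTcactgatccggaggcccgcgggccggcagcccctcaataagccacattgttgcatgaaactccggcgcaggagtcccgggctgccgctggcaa
BPGM: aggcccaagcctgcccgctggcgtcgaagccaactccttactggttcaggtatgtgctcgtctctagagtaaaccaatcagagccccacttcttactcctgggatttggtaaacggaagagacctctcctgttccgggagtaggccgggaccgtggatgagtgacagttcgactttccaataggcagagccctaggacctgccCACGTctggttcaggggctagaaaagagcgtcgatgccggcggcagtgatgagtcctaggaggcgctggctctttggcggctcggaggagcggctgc
ALDOC: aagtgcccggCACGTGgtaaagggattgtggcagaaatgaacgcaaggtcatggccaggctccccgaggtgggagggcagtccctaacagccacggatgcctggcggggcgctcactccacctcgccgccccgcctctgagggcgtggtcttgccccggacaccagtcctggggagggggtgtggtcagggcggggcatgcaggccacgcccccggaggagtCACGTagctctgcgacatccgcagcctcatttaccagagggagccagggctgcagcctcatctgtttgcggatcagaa

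These 5 genes were picked after their values were seen, and for a gene with several starts a window that holds the motif was taken. The table used here held 57 windows for 31 of the 33 genes, and starts of a gene can overlap. ACGTG was present on either strand in 22 of these windows (38.6%), against 21.4% of all 35116 windows. The MYC E-box CACGTG, which contains ACGTG, was present in 6 (10.5%), against 7.26%. The SP1 box GGGCGG was present in 40 (70.2%), against 45.0%. A match describes these letters only.

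The response to Zalypsis was set against itself between the lines, as OPM1-labelled minus MM1S. It was more negative in OPM1-labelled cells for 16 of the 33 genes (48.5%) and more positive for 2 (6.06%), with a median difference of -0.47. Over all tested genes these shares were 31.2% and 15.3% (46.6% either way), with a median of -0.14. Lower differences made up 88.9% of the called members, 77.8% after quantile normalization and 70.6% at a common 75th percentile, and 67.0%, 52.4% and 47.8% of all calls. Scaling by the poly-A controls put 27 members lower and 0 higher by limma, on arrays of which the MM1S ones held these controls near the median signal. Of all 11865 tested genes 5877 were then lower and 691 higher.

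PFKP and GBE1 differed most, by -3.13 ± 0.19 (adjusted p = 7.0e-11) and -2.88 ± 0.26 (adjusted p = 1.8e-08). GYS1 (-1.63), PGM1 and PFKM (-1.61 each), HK2 (-1.58), PFKFB3 (-1.48), SLC2A3 (-1.45), LDHA and ENO2 (-1.43 each) and UGP2 (-1.25) followed, with adjusted p at or below 6.5e-05. The MM1S signal of PFKP was dim with and without Zalypsis, as given above. BPGM had a higher change in OPM1-labelled cells, by 1.29 ± 0.23 (adjusted p = 7.5e-05), but by -0.39 when scaled by the poly-A controls. PDK1 and HK1, lower in both lines, had differences of -0.47 ± 0.21 and -0.41 ± 0.21 that were not called (adjusted p = 0.077 and 0.111). ALDOC, higher in both, had 0.35 ± 0.22 (adjusted p = 0.202).

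Smaller differences depended on single arrays and on the processing. PYGB (0.61, adjusted p = 0.032) was not called without any of OPM1-labelled Zalypsis 2 (adjusted p = 0.0731), OPM1-labelled control 1 (0.111), MM1S Zalypsis 2 (0.145) or MM1S control 1 (0.234), and without each of them 1 member was higher, in place of 2. It was also lost with a larger pseudocount, with no filter and by the mean of probe sets. SLC2A1 (-0.61, adjusted p = 0.032) was lost without OPM1-labelled Zalypsis 1 or OPM1-labelled control 2 (adjusted p = 0.133 each), MM1S Zalypsis 1 (0.182) or MM1S control 2 (0.0731). It was lost as well after quantile normalization (0.0531), at a common 75th percentile (0.239), with a smaller pseudocount or no filter (0.0504 each) and by the mean of probe sets (0.148). PFKFB4 (-0.55, adjusted p = 0.013) was lost without MM1S Zalypsis 1 (0.0724), after quantile normalization (0.116), at a common 75th percentile (0.121) and by the mean of probe sets (0.0589). At a common 75th percentile the differences of PGK1 (-0.58) and LDHB (-0.49) were lost too (adjusted p = 0.118 and 0.194), and that of PGK1 also without the _x_at and _s_at probe sets, which can match several transcripts (0.305). PDHA1 had a difference of -0.79.

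Before treatment the signals of many of these genes differed between the lines. OPM1-labelled controls had higher signals than MM1S controls for 14 of the 33 genes (42.4%) and lower ones for 11 (33.3%), with a median log2 difference of 0.22, while 28.6% of all tested genes were higher and 35.2% lower, with a median of -0.05. These control arrays are the ones that also enter the Zalypsis comparisons. PFKP stood 5.29 ± 0.14 higher in OPM1-labelled controls (adjusted p = 1.7e-18), with the signals given above. GBE1 was higher by 2.43, PFKFB3 by 1.78, HK2 by 1.76 and SLC2A1 by 1.67, with adjusted p at or below 4.0e-08. PDHA1 had 2446 and 2769 in OPM1-labelled controls, against 1052 and 831 in MM1S controls (log2 1.45, adjusted p = 2.4e-08). Scaled by the poly-A controls, 32 members were lower in OPM1-labelled controls and PFKP alone was higher. Of all 11865 tested genes 11759 were then lower and 56 higher.

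Other genes were brighter in MM1S. ENO2 was lower in OPM1-labelled controls (log2 -2.90 ± 0.18, adjusted p = 3.0e-12), and so was HK1 (-1.85 ± 0.15, adjusted p = 2.4e-10). PDK1 (-1.63) and SLC2A3 (-1.32) were lower as well. PYGB had 43.6 and 60.9 in OPM1-labelled controls, against 256 and 169 in MM1S controls (log2 -1.52, adjusted p = 2.8e-08), and PFKFB2 had 13.6 and 12.8, against 71.7 and 47.0 (adjusted p = 4.2e-06). HK1 and HK2, and SLC2A3 and SLC2A1, differed in opposite directions between the lines, other than under poly-A scaling, where HK2 (-2.29) and SLC2A1 (-2.36) were lower too. On the controls of both lines HK2 had a higher mean signal than HK1, and SLC2A1 a higher one than SLC2A3. LDHA did not pass this test (log2 -0.05, adjusted p = 0.694), at 8240 and 9318 in OPM1-labelled controls, against 9235 and 8930.

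**Figure D3:**
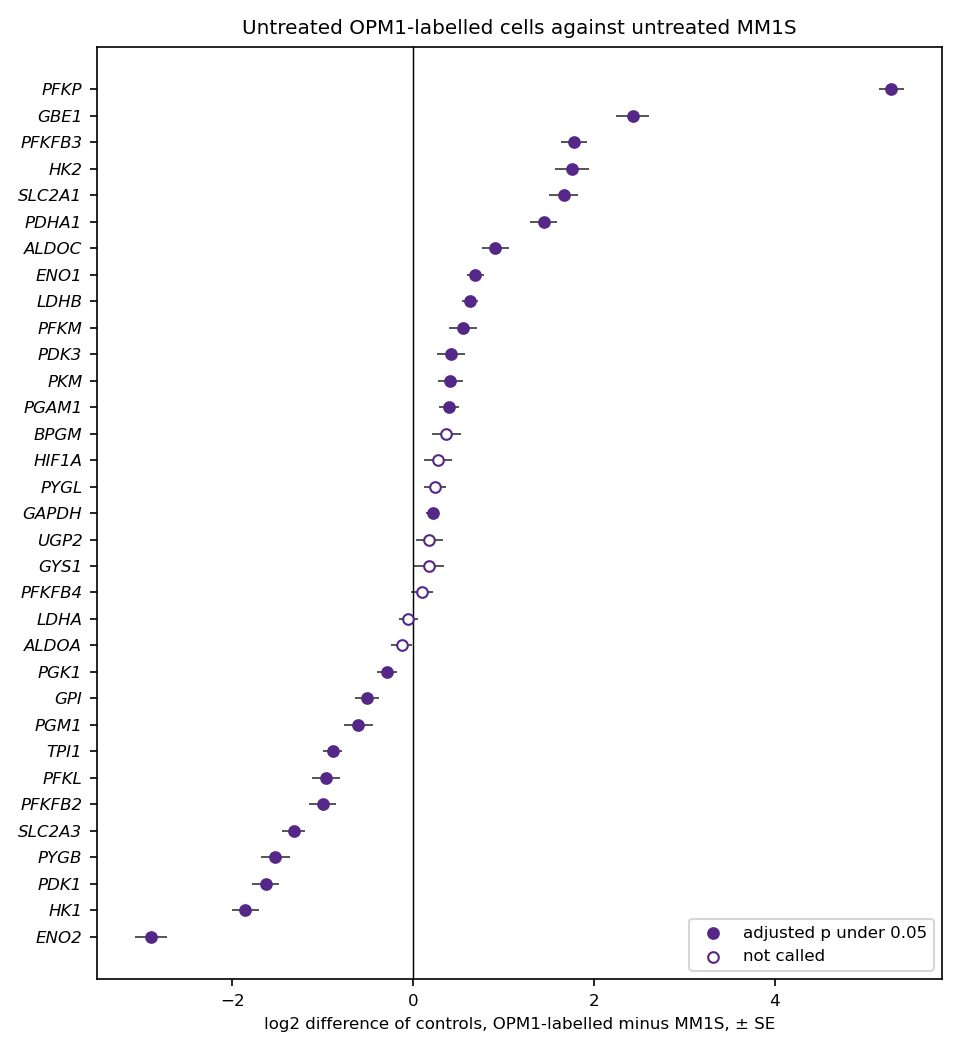
Log2 difference between the controls of the lines, OPM1-labelled minus MM1S (x axis, ± SE), for the 33 genes in order of size. Filled points passed the test. PFKP (5.29) and ENO2 (-2.90) mark the ends; scaled by the poly-A controls, all genes but PFKP lie below 0.

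Other genes of these pathways were taken from a list of 92, of which 64 were tested. In OPM1-labelled cells 34 fell and 10 rose (53.1% and 15.6%), with a median of -0.46. In MM1S 16 fell and 11 rose, with a median of -0.03. The background of each comparison is that given for all tested genes above. In MM1S 2319 of all tested genes fell and 2788 rose after quantile normalization, and 2082 and 2774 at a common 75th percentile. After quantile normalization 28 of the other genes fell and 20 rose in OPM1-labelled cells, where 3865 and 4642 of all tested genes did. At a common 75th percentile 25 fell and 22 rose in OPM1-labelled cells, where 3559 and 5194 of all tested genes did. After scaling by the poly-A controls 51 fell and 0 rose in these cells by limma. No rise there named below was therefore called under that scaling. A list for pyruvate entry into mitochondria, which includes the pyruvate carrier and the dehydrogenase complex, had 9 tested genes. Of these 7 fell and 0 rose in OPM1-labelled cells by limma. After quantile normalization 5 fell, and 3 at a common 75th percentile, again with 0 higher. MPC1 (log2 -1.36), a subunit of the pyruvate carrier, and DLAT (-1.12), DLD (-0.87) and PDHX (-0.73), components of the dehydrogenase complex, fell most, and the call of PDHX was lost at a common 75th percentile (-0.33, adjusted p = 0.06). In MM1S the phosphatase gene PDP1 rose (0.99), and no other gene of this list was called, while after quantile normalization or at a common 75th percentile 3 rose.

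Of 17 other glycogen genes 5 were lower and 5 higher in OPM1-labelled cells (29.4% each), and 4 lower and 5 higher in MM1S (23.5% and 29.4%). Of all tested genes 38.5% were lower and 25.4% higher in OPM1-labelled cells, and 21.1% and 16.4% in MM1S. In OPM1-labelled cells the counts were 6 lower and 10 higher after quantile normalization, 4 and 10 at a common 75th percentile, and 10 and 0 by limma after scaling by the poly-A controls. PGM2, a phosphomutase gene, fell in OPM1-labelled cells (log2 -2.95) and had 0.18 in MM1S, which was not called. GSK3B, a kinase that inhibits glycogen synthase, fell in OPM1-labelled cells (-2.47) and in MM1S (-2.21). So did PHKB (-2.00 and -1.63) and PHKA2 (-1.06 and -0.64), subunits of the kinase that activates phosphorylase. PHKG2, its catalytic subunit in liver, rose (0.84 and 0.50), as did PPP1R3B (0.51 and 0.82), which brings a phosphatase to glycogen. EPM2A, the glycogen phosphatase laforin, rose in OPM1-labelled cells (1.09).

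Among 11 further isozyme and transporter genes, SLC2A5, the fructose transporter, fell in OPM1-labelled cells (log2 -2.75), and SLC16A7, a monocarboxylate transporter, fell in OPM1-labelled cells (-1.96) and in MM1S (-1.08). BSG, the chaperone of the lactate transporters, rose in OPM1-labelled cells (2.00), and the muscle enolase gene ENO3 rose in both (1.03 and 0.46), but had -0.48 in OPM1-labelled cells after scaling by the poly-A controls. TIGAR, a phosphatase that lowers fructose bisphosphate and a target of p53, rose in MM1S (1.65) and had 0.22 in OPM1-labelled cells (adjusted p = 0.197). The 3 tested genes of gluconeogenesis, SLC37A4 (-1.29), G6PC3 (-0.94) and PCK2 (-0.68), fell in OPM1-labelled cells, but PCK2 was not called after quantile normalization (adjusted p = 0.058) or at a common 75th percentile (0.093). Of 7 pentose phosphate genes 5 fell there, led by RPIA (-1.30) and TKT (-1.18), and these 2 fell in MM1S also (-1.41 and -0.43), TKT without a call at a common 75th percentile (adjusted p = 0.073). PGD rose in OPM1-labelled cells (0.49), but had -1.13 when scaled by the poly-A controls.

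HIF1 partners and targets outside glycolysis gave 9 lower and 2 higher of 17 in OPM1-labelled cells (52.9% and 11.8%), where 38.5% and 25.4% of all tested genes were called. In MM1S 8 were lower and 3 higher (47.1% and 17.6%), where 21.1% and 16.4% of all tested genes were called. After quantile normalization these counts were 8 and 5 in OPM1-labelled cells and 6 and 3 in MM1S, and at a common 75th percentile 8 and 7, and 5 and 3. MXI1, a MYC antagonist induced by HIF1, fell in OPM1-labelled cells (log2 -2.77) and in MM1S (-0.85). EGLN1, the hydroxylase that marks HIF1A for decay, fell by 1.69 in OPM1-labelled cells, and ARNT, the partner of HIF1A, by 1.56. ADM and NDRG1 moved in opposite directions in the lines. ADM rose in OPM1-labelled cells (0.92) and fell in MM1S (-0.84), NDRG1 did the same (0.35 and -0.67), and BHLHE40 fell in OPM1-labelled cells (-0.48, not called at a common 75th percentile) and rose in MM1S (1.18).

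Across the 33 genes, Spearman's rho between the log2 change and the span of the gene in RefSeq was -0.47 in OPM1-labelled cells and -0.53 in MM1S, and without GBE1 it was -0.42 and -0.48. Over 11855 tested genes with a span it was -0.48 in each line. Genes of a sample share its arrays and are not independent, so these values are a description. The 5 genes lower in both lines spanned 59.2 to 271.9 kb, with a median of 131.9 kb, where the median was 33.5 kb for the 33 genes and 28.3 kb for all. GBE1 had the longest span of the 33 and PDK1 spanned 168.9 kb. PFKFB3 (181.7 kb) and PDK3 (85.2 kb), with changes of -0.33 and 0.12 in MM1S that were not called, were long as well, and LDHA (13.9 kb) and ENO2 (9.12 kb) were short genes that fell in OPM1-labelled cells.

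**Figure D4:**
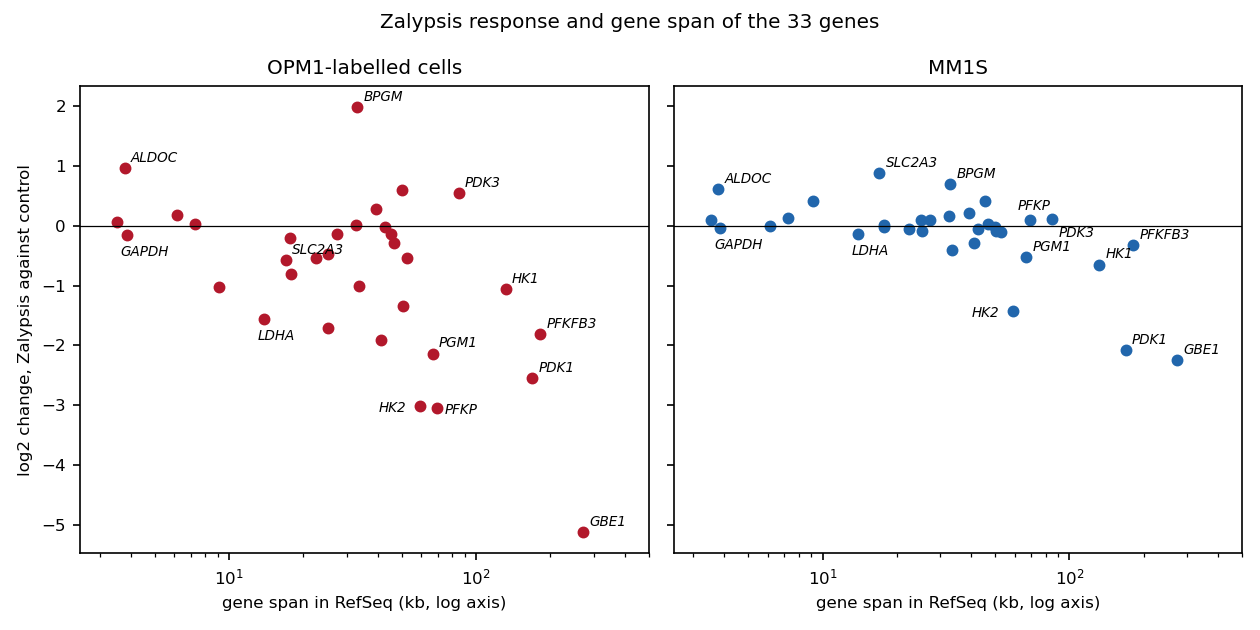
Log2 change with Zalypsis (y axis) against gene span in kb (log axis) for the 33 genes, in OPM1-labelled cells (left) and MM1S (right); each point is a gene and some are named. GBE1 lies lowest and farthest right in both panels, and ALDOC lies above 0 at 3.78 kb; in OPM1-labelled cells ALDOC turns lower when scaled by the poly-A controls.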

How the data were processed

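Expression was measured in 8 samples, 1 array each, in 4 groups of 2 by line and treatment. RNA (100 ng per sample) went through 2 cycles of amplification and biotin labelling with GeneChip kits, per the labels' protocols, whereas the design text names an Enzo kit. The deposited values are intensities on a linear scale from the authors' dChip analysis, 1 per probe set and array. Which dChip version, normalization and probe model they used is not given in the sources used here.

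Of 54675 probe sets, 41091 had a single symbol in the platform annotation, 1801 had several and 11721 had none in the table used; 62 were controls. Symbols of 41037 were matched by gene identifier to RefSeq genes of GRCh38.p14. The probe set with the highest mean log2(value + 32) over the 8 arrays stood for a gene, and the 40% of genes with the lowest such mean (signal under 27.3) were left out. Taking the mean of log2 values here and not of signals was decided after both outputs had been seen, and the other choice is among the alternatives.

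limma 3.58.1 in R 4.3.3 fitted 1 mean per group over all 8 arrays, with eBayes and a trend. The residual degrees of freedom were 4 and the prior ones 17.0. P-values were adjusted by Benjamini-Hochberg over 11865 genes in each contrast. The steps were tested on simulated data. Promoter sequences and gene spans are from RefSeq. The number of arrays limits the precision.

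The genes, lists and tests were chosen with earlier results of these data known. Every member was to be named by role. All array values were to be given for members called with an absolute log2 change over 1 in a line or in the difference between lines, and up to 4 called genes per other list, direction and line were to be named, though not all are. Alternatives covered scaling, pseudocount, filter, probe set choice, arrays in the fit, the spread, a replicate block, a 2-fold rule and each array left out in turn.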

Additional observations from a re-analysis of the deposited data

Results flagged for a closer look

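The Zalypsis response differed between the lines for 18 of the 33 genes by the test of the difference itself (limma, adjusted p under 0.05), in which OPM1-labelled cells were set against MM1S. Of the log2 differences, those of genes that handle glycogen were -2.88 for GBE1, -1.61 for PGM1, -1.25 for UGP2, -1.63 for GYS1 and 0.61 for PYGB. Glucose entry and its control gave -1.58 for HK2, -1.61 for PFKM, -3.13 for PFKP, -1.48 for PFKFB3, -0.55 for PFKFB4, -0.61 for SLC2A1 and -1.45 for SLC2A3. Later steps gave -0.58 for PGK1, 1.29 for BPGM, -1.43 for ENO2, -1.43 for LDHA, -0.49 for LDHB and -0.79 for PDHA1. Of all tested genes 46.6% were called in this comparison.

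Outside the gene probe sets, the poly-A controls read 1948 on OPM1-labelled Zalypsis 1 and 1479 on OPM1-labelled Zalypsis 2, above the 349 and 541 of the controls of that line. Their part in the results was not tested beyond the scaling described with the processing.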

How the results depend on the processing

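Apart from the poly-A scalings and the 2-fold rule, the call was kept under every alternative that could be run by 18 of 22 called members in OPM1-labelled cells, 6 of 9 in MM1S, 13 of 18 for the difference and 20 of 25 between the controls. Scaling each array by its poly-A controls gave 0 members higher and 29 lower in OPM1-labelled cells, 1 higher and 7 lower in MM1S, 0 and 27 for the difference, and 1 and 32 between the controls. The MM1S arrays hold the poly-A controls near background, so scaling only the OPM1-labelled arrays was added after seeing the data. It gave 0 members higher and 32 lower, and 81 and 10782 of all tested genes. Log2 changes in OPM1-labelled cells turned under the first scaling and, in brackets, the second: ALDOA -1.73 (-1.77), ALDOC -0.76 (-0.92), TPI1 -1.80 (-1.88), PGAM1 -1.88 (-1.93), PKM -1.82 (-1.92), PDK3 -1.02 (-1.30), PYGL -0.43 (-1.05) and PYGB -0.30 (-0.74). Differences turned under the first for GPI (-1.47), ALDOA (-1.45), ALDOC (-1.15), BPGM (-0.39), PDK3 (-0.87) and PYGB (-0.0109). Between the controls it turned HK2 (-2.29), PFKM (-3.52), ALDOC (-2.96), GAPDH (-3.97), BPGM (-3.39), PGAM1 (-3.77), ENO1 (-3.49), PKM (-3.73), LDHB (-3.55), SLC2A1 (-2.36), PDHA1 (-2.67), PDK3 (-3.46), PFKFB3 (-1.69), PFKFB4 (-2.98), HIF1A (-3.79), UGP2 (-3.92), GYS1 (-3.75), GBE1 (-1.67) and PYGL (-2.57).

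At a common 75th percentile 13 members were higher in OPM1-labelled cells, 7 in MM1S and 5 for the difference. Of all 11865 tested genes 5194, 2774 and 3140 were then higher. GPI (0.40), GAPDH (0.26), ENO1 (0.21) and PFKFB2 (0.51) turned in OPM1-labelled cells. Quantile normalization gave 4 members higher for the difference, with 2982 of all tested genes, and turned PFKFB2 (0.36). The mean of probe sets turned PDK3 in OPM1-labelled cells (-0.51) and the differences of PDK1 (0.41) and PDK3 (-0.47). Without _x_at and _s_at sets only 18 members could be tested, with 10 lower in OPM1-labelled cells, 1 higher and 7 lower for the difference, and 9 higher and 5 lower between the controls. With no filter, and with a larger pseudocount, 1 member was higher for the difference. The 2-fold rule with no test gave 2 higher in OPM1-labelled cells, 1 higher and 3 lower in MM1S, 1 higher for the difference, and 6 higher and 7 lower between the controls. Choosing probe sets and filter by mean signal, also added after seeing the data, gave 5 higher and 18 lower in OPM1-labelled cells, as PYGL was called (adjusted p = 0.0493). Its adjusted p was 0.052 as reported.

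Leaving out an array gave 3 to 5 higher and 17 to 20 lower in OPM1-labelled cells, 2 to 5 and 4 to 7 in MM1S, 1 to 3 and 15 to 17 for the difference, and 11 to 15 and 9 to 12 between the controls. A group left with 1 array was assumed to vary like the others. No label says that replicate numbers pair arrays, and their deviations correlated at 0.21 in each line over 2 pairs. With the replicate block 5 members were higher and 20 lower in OPM1-labelled cells, 5 and 7 in MM1S, 3 and 18 for the difference, and 16 and 11 between the controls. Except where the setting itself tests fewer genes, the cause was not tested. Dim signals limit HK1, ENO2, SLC2A3 and PFKFB2 in OPM1-labelled cells and PFKP in MM1S.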
